A study of Mus musculus with 18 samples.

Results

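Amphiregulin (Areg) and 7 further genes of the epidermal growth factor (EGF) receptor system were followed across 18 samples of mouse dorsal root ganglia. The 8 genes were picked by symbol out of the 15730 genes in the deposited count table: the ligand genes Areg, Hbegf, Btc and Nrg1, and the receptor genes Egfr, Erbb2, Erbb3 and Erbb4. All 8 were in that table and all were tested. Areg was put forward because its level differed after sciatic nerve injury in these same samples, so its values in that comparison are a description and carry no test here.

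EGF-family ligands are made as membrane-anchored precursors and are released by metalloproteases at the cell surface. Areg, Hbegf and Btc encode ligands that bind the EGF receptor (Egfr), and Hbegf and Btc products also bind ErbB4, whereas Nrg1 encodes neuregulin-1, which binds ErbB3 and ErbB4. ErbB2 has no known ligand of its own and pairs with the other receptors, and neuregulin-1 on axons acting through ErbB2 and ErbB3 on Schwann cells is known for its control of Schwann cell survival and myelination in peripheral nerve.

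The samples were the ganglia that send axons into the sciatic nerve, from C57BL/6 mice of 6 to 8 weeks of age, collected 24 hours after surgery, with the ganglia of 2 mice pooled in each sample. There were 6 groups of 3 samples. SNA_Saline received a sciatic nerve injury with saline and Sham_Saline a sham operation with saline. SNA_NAC received the sciatic injury with N-acetyl-cysteine, an antioxidant, at 30 mM, and Sham_H202 (spelled with a zero in the labels) received the sham operation with 13 mM hydrogen peroxide. DCA received an injury of the spinal dorsal columns, which carry the central axon branches of the same neurons, and LAM received laminectomy, the removal of bone that exposes the cord. Because each sample is whole ganglion RNA, a change in the number of cells of a type and a change in RNA per cell cannot be told apart.

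Deposited counts per sample summed to between 6472476 and 42435331. All 8 sensory neuron marker genes were present in every group, with a summed level of 10393 to 15572 CPM (TMM-scaled counts relative to library size). Skeletal muscle markers ranged from 5.43 to 1085 CPM among the 3 Sham_Saline samples and from 21.8 to 217 CPM in SNA_Saline, and the GC dependence of gene levels was steepest in Sham_Saline replicate 2, at 0.40 log2 units per standard deviation of GC share.

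In the mouse genome (GRCm38), Areg lies on the plus strand of chr5:91139599-91148432 as a protein-coding gene. Its neighbours include 3 other genes of EGF receptor ligands: Epgn, Ereg and Btc. The stretch from Epgn to Btc spans 375531 bases and holds 4 protein-coding genes, all of them ligand genes of this family. The 250 bases before the annotated start of Areg and of Btc, from RefSeq (GRCm38.p6), are shown because these neighbouring ligand genes had different levels after sciatic injury. Capitals mark the cyclic AMP response element TGACGTCA and the TATA box letters TATAAA, and each sequence runs 5′ to 3′ on the strand of its gene.
Areg, chr5:91139349-91139598, plus strand: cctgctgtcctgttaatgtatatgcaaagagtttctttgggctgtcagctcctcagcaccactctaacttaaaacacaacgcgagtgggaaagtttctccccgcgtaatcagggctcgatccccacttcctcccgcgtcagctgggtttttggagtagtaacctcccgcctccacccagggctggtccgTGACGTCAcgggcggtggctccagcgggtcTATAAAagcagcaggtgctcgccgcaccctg
Btc, chr5:91402995-91403244, minus strand: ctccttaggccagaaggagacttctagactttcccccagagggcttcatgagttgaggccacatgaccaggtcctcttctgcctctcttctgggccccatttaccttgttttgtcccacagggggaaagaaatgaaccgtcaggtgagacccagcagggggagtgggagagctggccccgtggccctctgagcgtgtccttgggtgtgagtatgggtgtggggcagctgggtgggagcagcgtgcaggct

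The Areg sequence held TGACGTCA at 61 to 54 bases before the start and TATAAA at 31 to 26 bases before it. Of 27025 mouse promoter windows of 250 bases, 1.62% held TGACGTCA, which reads the same on both strands, and 13.0% held TATAAA on either strand. The AP-1 letters TGANTCA, searched on both strands, do not overlap with TGACGTCA and were in 6.87% of the windows but not in that of Areg. None of the 3 motifs was found in the windows of Btc, Egfr, Erbb2 or Erbb4. Promoter entries were used for 5 of the 8 genes, which leaves Hbegf, Nrg1 and Erbb3. A match of letters is a description of the sequence, and occupancy by any factor was not measured.

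Areg, the amphiregulin gene, had 9.50, 7.89 and 6.27 CPM in the 3 SNA_Saline samples (144, 73 and 88 counts). The 3 Sham_Saline samples had 0.763, 1.18 and 0.950 CPM (16, 28 and 14 counts). All 3 injured samples were above all 3 sham samples. The group means were 7.89 ± 1.61 CPM (SD, n = 3) and 0.964 ± 0.209 CPM (SD, n = 3), and the fitted log2 fold change was 3.02 (SE 0.30), or 8.10-fold.

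The sciatic injury with the antioxidant gave nearly the same Areg level. The SNA_NAC samples had 8.42, 7.26 and 7.59 CPM (355, 116 and 183 counts), with a mean of 7.75 ± 0.596 CPM (SD, n = 3). The range of SNA_NAC lay inside that of SNA_Saline, and the log2 difference between them was -0.02 (SE 0.26) with a 95% interval from -0.57 to 0.52. Against Sham_Saline, which serves as the control for both injured groups, the log2 fold change was 2.99 (SE 0.30), or 7.97-fold.

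Sham_H202 held the highest Areg values among the groups without sciatic injury. Its samples had 2.199, 1.04 and 1.43 CPM (17, 23 and 9 counts), with a mean of 1.56 ± 0.589 CPM (SD, n = 3). They overlapped with Sham_Saline, and the log2 fold change of 0.59 (SE 0.36, 95% interval -0.17 to 1.34) did not pass the test, with a Benjamini-Hochberg adjusted p of 0.454 in edgeR's quasi-likelihood test.

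Injury of the central axon branch did not come with a detectable difference in Areg at this depth. The LAM samples had 0.104, 0.650 and 0.336 CPM (1, 12 and 10 counts) and the DCA samples 0.415, 0.683 and 0.443 CPM (11, 8 and 11 counts). The groups overlapped, and the log2 fold change was 0.30 (SE 0.44, 95% interval -0.63 to 1.22, edgeR adjusted p = 0.764). The sciatic response of Areg exceeded the dorsal column response by 2.72 log2 units (SE 0.54), again as a description.

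The comparison of SNA_NAC with Sham_H202 shares no sample with that of SNA_Saline with Sham_Saline, and its groups differ by agent as well as by injury. The 8 genes were chosen with results of all 18 samples known, so its p-values are not independent support. All 3 SNA_NAC samples were above all 3 Sham_H202 samples. Areg rose by 2.41 log2 units (SE 0.31, 95% interval 1.75 to 3.07), or 5.31-fold, with an edgeR adjusted p of 0.000477. In this comparison 1.13% of all genes passed, and Areg was the only one of the 8 genes that did. The adjusted p of Areg stayed between 5.85e-11 and 0.0134 over the alternative settings that tested the gene. When the dorsal column response was subtracted from this sciatic response, the difference was 2.11 log2 units (SE 0.55) and missed the threshold (edgeR adjusted p = 0.174).

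Ordered by mean level, Areg ran from LAM and DCA through Sham_Saline and Sham_H202 to SNA_NAC and SNA_Saline. Neighbours in that order overlapped within each of these 3 pairs, whereas no value overlapped between the pairs. The share of all genes with such an order was not counted, so nothing is read from it. The highest DCA value was 0.683 CPM (8 counts) against a lowest Sham_Saline value of 0.763 CPM (16 counts). The highest Sham_H202 value was 2.199 CPM against a lowest SNA_NAC value of 7.26 CPM. Of all genes, 30.6% had no overlap between Sham_Saline and LAM. Between the control operations, Sham_Saline was above LAM by 1.28 log2 units (SE 0.40, 95% interval 0.45 to 2.12). That difference missed the threshold in edgeR (adjusted p = 0.104). It passed in DESeq2 (adjusted p = 0.0464), which called 1083 of the 15730 genes in this comparison. It also passed in edgeR without Sham_Saline replicate 1 (adjusted p = 0.0264), where 5009 genes were called against 11 with that replicate. DCA against Sham_Saline was not tested.

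Summed markers of macrophages, neutrophils and fibroblasts overlapped between the injured and the sham group. The 4 macrophage markers in the table summed to 28.5 to 36.1 CPM in SNA_Saline and 29.1 to 41.6 CPM in Sham_Saline, and the 4 neutrophil markers to 252 to 395 CPM and 231 to 414 CPM. The 4 fibroblast markers summed to 729 to 839 CPM in SNA_Saline and 622 to 767 CPM in Sham_Saline. Without overlap, the 4 endothelial cell markers summed to 53.1 to 60.0 CPM in SNA_Saline and 62.0 to 67.5 CPM in Sham_Saline. The part of the endothelial markers in the Areg result was not tested. No marker in the table was at 0 in all samples, and no marker of any list passed the test in SNA_Saline against Sham_Saline. In SNA_NAC against Sham_H202, 1 satellite glia marker passed, Glul, which encodes glutamine synthetase (log2 fold change 0.41, SE 0.09, edgeR adjusted p = 0.0389), and its part in the Areg result was not tested.

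No skeletal muscle or red blood cell marker passed the test in these comparisons. All 5 skeletal muscle markers were below 0 on the log2 scale in SNA_Saline against Sham_Saline (median -1.88) and in SNA_NAC against Sham_H202 (median -1.84, range -1.94 to -1.64). All 4 red blood cell markers were below 0 in SNA_Saline against Sham_Saline (median -0.57), and 3 of 4 were in SNA_NAC against Sham_H202 (median -0.19). The part of these markers in the Areg result was not tested.

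**Figure D1:**
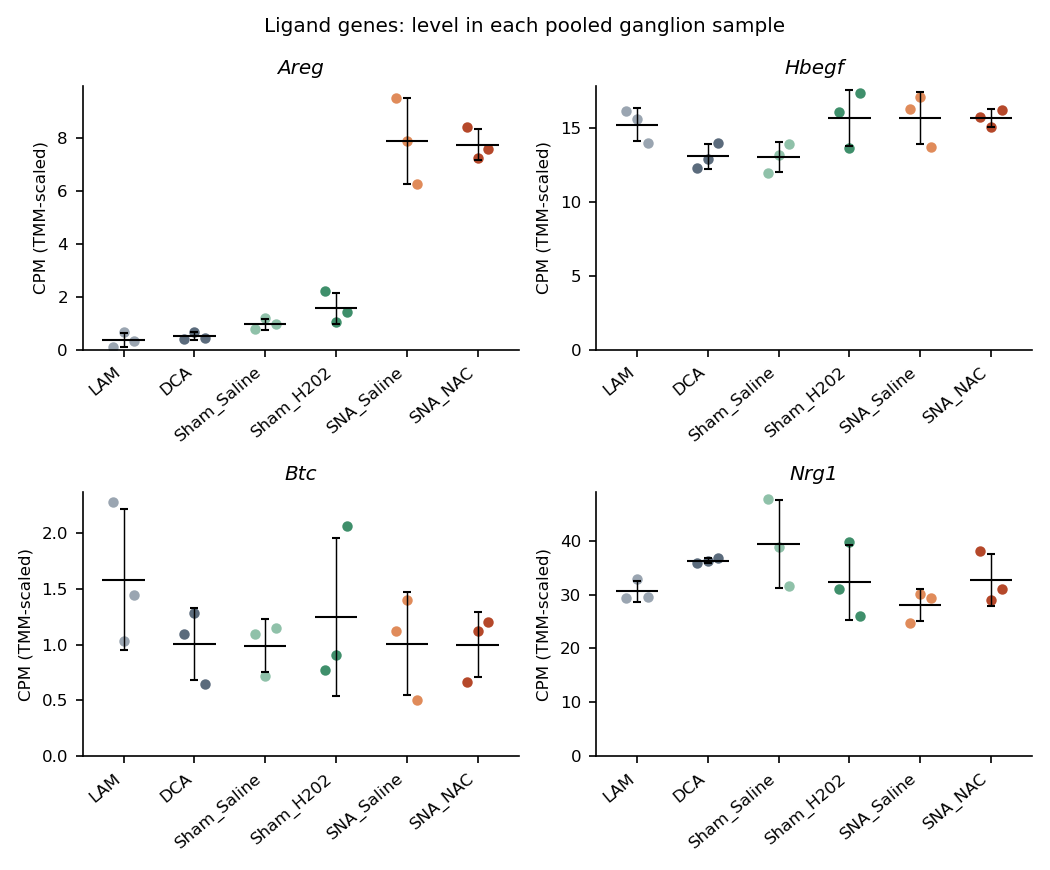
Level of the 4 ligand genes in each sample, in CPM after TMM scaling on linear axes from 0, with 3 points per group, a bar at the mean and whiskers of 1 SD. The 6 Areg points after sciatic injury run from 6.27 to 9.50 CPM and the 12 others from 0.104 to 2.199 CPM, while the groups of Hbegf, Btc and Nrg1 lie close together.

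Hbegf encodes heparin-binding EGF-like growth factor, and its 18 values ran from 11.96 to 17.3 CPM. Sham_Saline had 11.96, 13.2 and 13.9 CPM and SNA_Saline 16.2, 17.1 and 13.7 CPM, so that 1 injured sample fell below the highest sham sample. The log2 fold change was 0.27 (SE 0.12). SNA_NAC had 15.7, 15.0 and 16.2 CPM, all above Sham_Saline, but Sham_H202 had 16.0, 13.6 and 17.3 CPM and spanned the SNA_NAC range. SNA_NAC against Sham_H202 gave a log2 fold change of 0.01 (SE 0.12, 95% interval -0.25 to 0.27), and the edgeR adjusted p was 0.993. LAM had 16.1, 15.6 and 13.9 CPM and DCA 12.3, 12.9 and 14.0 CPM, with a log2 fold change of -0.22 (SE 0.12, edgeR adjusted p = 0.624). LAM lay above Sham_Saline without overlap, at a log2 value of -0.22 for Sham_Saline over LAM (SE 0.12, edgeR adjusted p = 0.224).

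Btc, the betacellulin gene next to Areg on chromosome 5, was near the low end of the table. Its 18 values ran from 0.499 to 2.28 CPM, and the group means from 0.989 ± 0.238 CPM in Sham_Saline to 1.58 ± 0.635 CPM in LAM (SD, n = 3 each). SNA_Saline had 1.12, 1.41 and 0.499 CPM, with a mean of 1.009 ± 0.464 CPM. Every pair of groups compared overlapped. The log2 fold change of SNA_Saline over Sham_Saline was 0.01 (SE 0.45) and that of SNA_NAC over Sham_H202 was -0.25 (SE 0.45, 95% interval -1.19 to 0.69, edgeR adjusted p = 0.916).

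Nrg1, the neuregulin-1 gene, was lower in every SNA_Saline sample than in any Sham_Saline sample. Sham_Saline had 47.8, 38.8 and 31.6 CPM and SNA_Saline 24.7, 30.2 and 29.3 CPM. The group means were 39.4 ± 8.14 CPM and 28.1 ± 2.91 CPM (SD, n = 3 each). The log2 fold change was -0.49 (SE 0.16). Sham_Saline replicate 1 set the top of the range.

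The Nrg1 values of SNA_NAC overlapped with those of Sham_Saline (log2 fold change -0.27) and with those of Sham_H202. SNA_NAC had 38.1, 28.9 and 31.0 CPM and Sham_H202 31.0, 39.7 and 26.1 CPM. The log2 fold change of SNA_NAC over Sham_H202 was 0.01 (SE 0.16, 95% interval -0.34 to 0.36, edgeR adjusted p = 0.996). DCA had 35.9, 36.2 and 36.8 CPM, all above the LAM values of 29.3, 32.8 and 29.6 CPM, but the log2 fold change of 0.25 (SE 0.16) did not pass the test (edgeR adjusted p = 0.624). The sciatic minus the dorsal column response of Nrg1 was -0.74 log2 units (SE 0.23). With offsets for the GC share and length of transcripts it was -1.07 (SE 0.27), and the sciatic response itself was -0.66 (SE 0.19).

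The receptor genes showed no group that stood apart as the injured groups did for Areg. Egfr, the receptor gene for amphiregulin, had 8.53, 5.81 and 3.94 CPM in Sham_Saline and 7.72, 7.57 and 7.48 CPM in SNA_Saline, where the injured samples lay within the sham range (log2 fold change 0.31, SE 0.26). SNA_NAC had 6.00, 9.14 and 8.96 CPM and Sham_H202 4.01, 5.39 and 6.83 CPM, with a log2 fold change of 0.57 (SE 0.27, 95% interval -0.01 to 1.14, edgeR adjusted p = 0.547). The SNA_NAC values overlapped with Sham_H202 through 1 sample of each group. DCA, at 4.34, 7.002 and 4.96 CPM, overlapped with LAM, at 6.11, 8.08 and 8.39 CPM (log2 fold change -0.51, SE 0.26, edgeR adjusted p = 0.624).

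Erbb2, the gene of the shared co-receptor, had no overlap between the control operations, where 30.6% of all genes had none. The Erbb2 difference was smaller with offsets for GC share and length. Sham_Saline had 6.15, 9.81 and 9.64 CPM and LAM 5.59, 5.47 and 5.04 CPM, a log2 fold change of 0.67 (SE 0.24, edgeR adjusted p = 0.107). DCA had 7.01, 6.23 and 10.9 CPM, also all above LAM (log2 fold change 0.60, SE 0.24, edgeR adjusted p = 0.624). Of all genes, 21.7% had no overlap between DCA and LAM. Without Sham_Saline replicate 1, Sham_Saline over LAM was 0.86 (SE 0.23) and passed (edgeR adjusted p = 0.0243). That fit called 5009 of the 15730 genes. The longest transcript of Erbb2 has a GC share of 57.3%. The GC dependence of gene levels was 0.23 log2 units per standard deviation in DCA replicate 3 and 0.40 in Sham_Saline replicate 2, and its part in the Erbb2 result was not tested.

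With offsets for GC share and length, the Erbb2 difference between Sham_Saline and LAM was 0.16 (SE 0.16) and that between DCA and LAM 0.31 (SE 0.16). The sciatic response of Erbb2 was -0.37 (SE 0.24) and became 0.02 (SE 0.16) with the offsets. The SNA_Saline samples had 6.99, 5.51 and 7.13 CPM, the SNA_NAC samples 7.28, 5.13 and 6.47 CPM and the Sham_H202 samples 6.85, 7.79 and 4.61 CPM. SNA_NAC and Sham_H202 overlapped and did not pass the test (log2 fold change -0.05, SE 0.24, edgeR adjusted p = 0.977).

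Erbb3, the neuregulin receptor gene of Schwann cells, had the highest CPM of the receptor genes and the smallest relative spread among them. Its 18 values ran from 41.1 to 69.1 CPM. Sham_Saline had 53.6, 43.3 and 50.8 CPM and SNA_Saline 56.9, 57.1 and 41.1 CPM, which overlapped (log2 fold change 0.07, SE 0.14). The 7 other contrasts gave Erbb3 log2 values from 0.00 to 0.20 in size, the largest being Sham_H202 over Sham_Saline at 0.20 (SE 0.14, edgeR adjusted p = 0.502). The 5 myelinating Schwann cell markers summed to 6447 to 7461 CPM in LAM and 6265 to 10306 CPM in Sham_Saline, and none passed the test in any contrast.

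Erbb4, the second neuregulin receptor gene, was detected at 0.642 to 2.38 CPM. Its highest group mean was 1.94 ± 0.384 CPM in SNA_NAC, followed by 1.70 ± 0.379 CPM in Sham_H202 (SD, n = 3 each). Those groups overlapped (log2 fold change 0.24, SE 0.34, edgeR adjusted p = 0.883). SNA_NAC also overlapped with SNA_Saline, at 1.91, 1.08 and 0.642 CPM (log2 fold change 0.63, SE 0.34, 95% interval -0.09 to 1.35). No order between the groups can be read from these values.

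**Figure D2:**
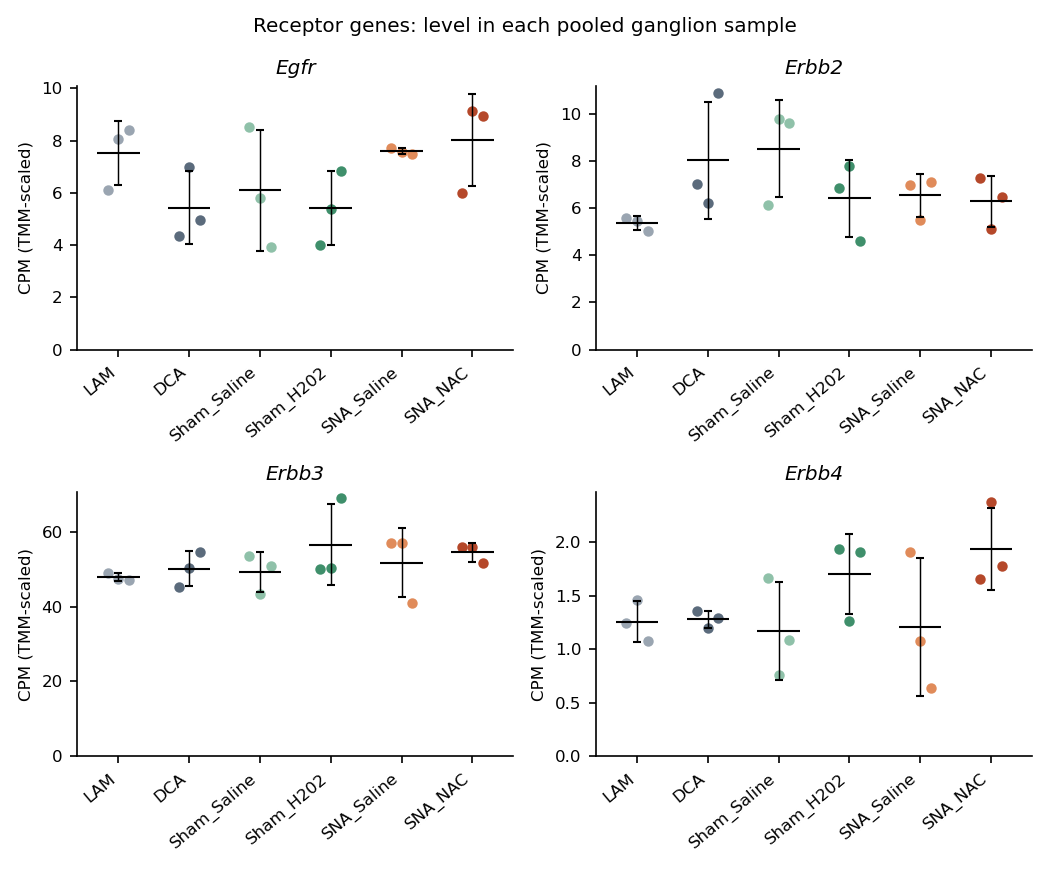
Level of the 4 receptor genes in each sample, in CPM after TMM scaling on linear axes from 0, with 3 points per group, a bar at the mean and whiskers of 1 SD. The groups overlap in most pairs; in Erbb2 the 3 LAM points, 5.04 to 5.59 CPM, lie below all Sham_Saline and DCA points.

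Counted over the 8 genes, only Areg passed the threshold of 0.05 in SNA_Saline against Sham_Saline, where 2.73% of all genes passed, and in SNA_NAC against Sham_Saline, where 3.32% did. The same was so for the difference between the sciatic and the dorsal column response, with 1.61% of all genes passing (254 genes, or 118 once the replicate number was fitted as a block). These 3 counts rest on comparisons in which Areg was already known to stand out, so nothing is read from them. None of the 8 passed in the other 4 comparisons. For SNA_NAC against SNA_Saline, Sham_H202 against Sham_Saline and DCA against LAM, 0% of all genes passed in edgeR, and before adjustment 314, 1440 and 793 genes (2%, 9.15% and 5.04%) had a p under 0.05. DESeq2 called 0, 4 and 2 genes there, none of them among the 8.

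In Sham_Saline against LAM, 0.0699% of all genes passed in edgeR (11 genes) and 1083 in DESeq2, Areg among the latter. Before adjustment 30.3% of all genes had a p under 0.05 in it. By that rule 0 of the 8 genes passed in SNA_NAC against SNA_Saline, 0 in Sham_H202 against Sham_Saline, 1 in DCA against LAM and 3 in Sham_Saline against LAM. Groups without overlap were found for 2 of the 8 genes in SNA_Saline against Sham_Saline (Areg and Nrg1; 19.1% of all genes), for 2 in SNA_NAC against Sham_Saline (Areg and Hbegf; 21.2%), for 0 in SNA_NAC against SNA_Saline (14.9%) and for 0 in Sham_H202 against Sham_Saline (5.43%). They were found for 2 in DCA against LAM (Nrg1 and Erbb2), where 21.7% of all genes had none, and for 3 of 8 in Sham_Saline against LAM (Areg, Hbegf and Erbb2), where 30.6% had none. In SNA_NAC against Sham_H202 it was 1 of 8, against 19% of all genes. In the last 3 of these comparisons the shares among the 8 genes are near those of all genes, and nothing is read from the first pair, in which Areg was already known to stand out.

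**Figure D3:**
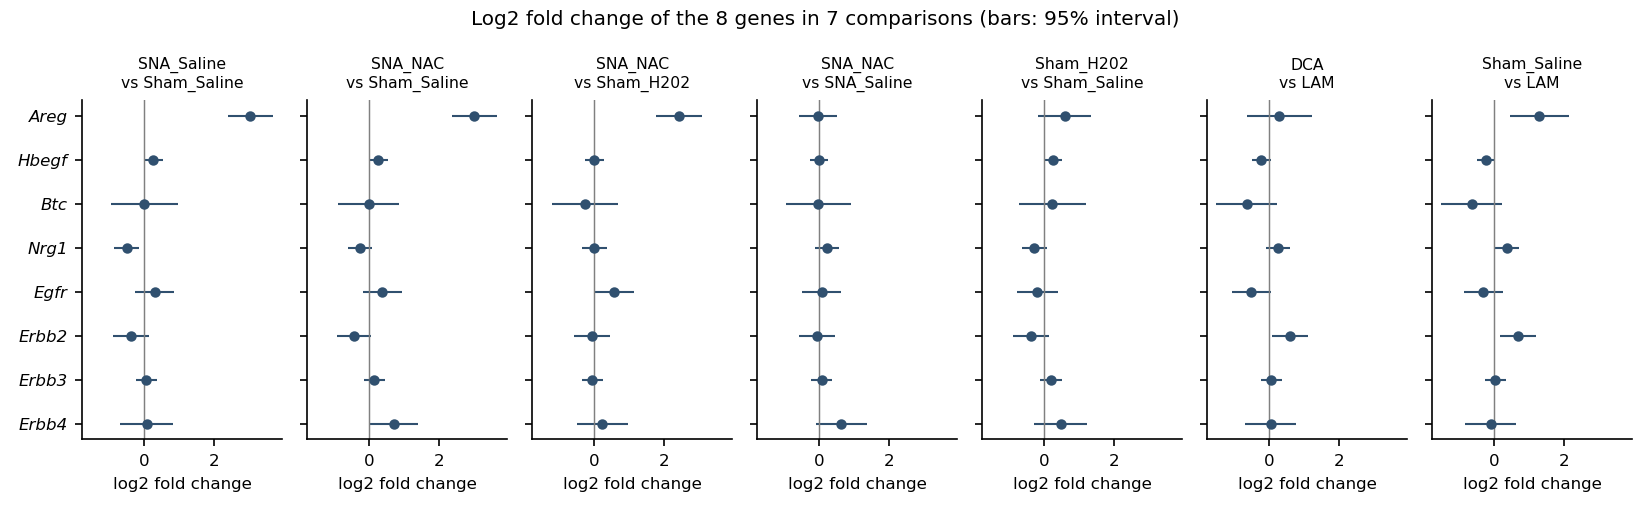
Log2 fold changes of the 8 genes in 7 comparisons from edgeR, each with its 95% interval as a horizontal bar and a vertical line at 0. Areg stands at 3.02, 2.99 and 2.41 in the comparisons of sciatic injury with a sham group, and most intervals of the other genes include 0.

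Levels of different genes were compared per transcript length, in the deposited FPKM (fragments scaled by transcript length and library total). Among the receptor genes the order Erbb3, Erbb2, Egfr, Erbb4 held in 18 of 18 samples, with means over the 18 samples of 8.47, 1.31, 0.581 and 0.114 FPKM. Among the ligand genes, Nrg1 was above Hbegf in 18 of 18 samples, with means of 15.6 and 6.11 FPKM. The Nrg1 level depends on the length used: relative to Areg, the deposited values imply a length ratio of 1.75, whereas the longest annotated transcripts have a ratio of 4.46.

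The place of Areg among the ligands of its receptor shifted with sciatic injury. Its level was 6.43 ± 1.24 FPKM in SNA_Saline and 6.30 ± 0.544 FPKM in SNA_NAC, against 0.807 ± 0.169 FPKM in Sham_Saline, 1.28 ± 0.469 FPKM in Sham_H202, 0.424 ± 0.116 FPKM in DCA and 0.298 ± 0.225 FPKM in LAM (SD, n = 3 each). Areg took 33.7% ± 3.53 of the summed FPKM of 7 EGF receptor ligand genes (Areg, Hbegf, Btc, Egf, Tgfa, Epgn and Ereg) in SNA_Saline and 33.1% ± 1.93 in SNA_NAC. The share was 6.85% ± 1.44 in Sham_Saline, 9.28% ± 3.05 in Sham_H202, 3.89% ± 0.997 in DCA and 2.56% ± 1.90 in LAM.

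The summed level itself was 19.01 ± 2.33 FPKM in SNA_Saline and 11.8 ± 0.576 FPKM in Sham_Saline, while the share of Hbegf was 34.1% ± 1.41 and 46.7% ± 1.88. Hbegf itself had 6.65, 6.94 and 5.78 FPKM in SNA_Saline and 5.06, 5.51 and 5.97 FPKM in Sham_Saline. Its share was smaller although its mean level was not lower. Thus Areg, Hbegf and Tgfa transcripts were at similar levels after sciatic injury, whereas Hbegf and Tgfa were well above Areg in the other groups. Hbegf was above Areg in 16 of 18 samples and Tgfa was above Areg in 12 of 18.

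**Figure D4:**
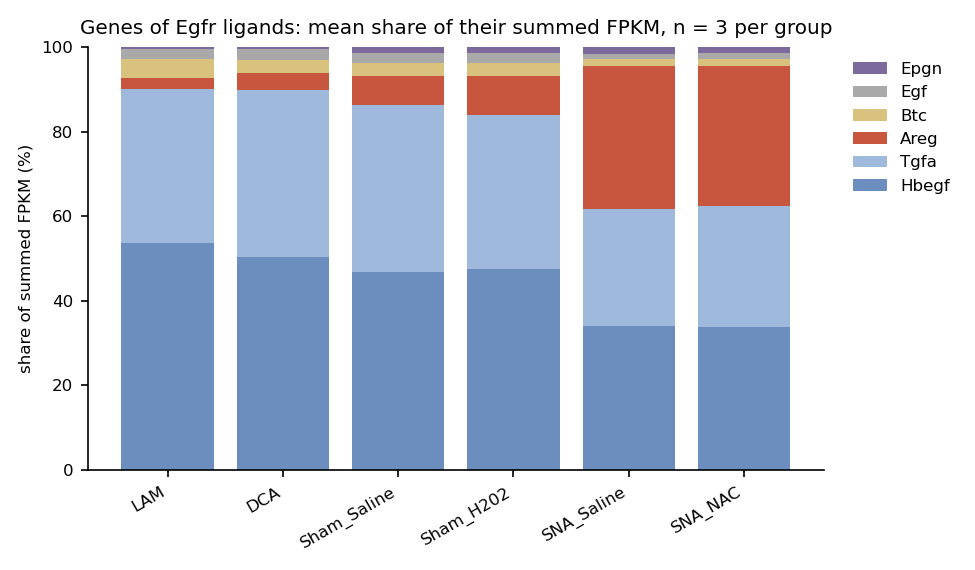
Mean share of each gene in the summed FPKM of the EGF receptor ligand genes, in percent, as stacked bars from 0 to 100 for 6 groups of 3 samples. The Areg segment is 33.7% in SNA_Saline and 33.1% in SNA_NAC and between 2.56% and 9.28% in the other groups.

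Beyond the 8 genes, 86 genes of the pathway were examined in 5 lists, of which the count table held 82. In SNA_Saline against Sham_Saline, 4 of the 82 passed and all 4 were higher after injury, where 2.73% of all genes passed and 2.16% passed as higher: Adam8, Socs2, Phlda1 and Myc. With the block, 3 passed. Fitting only the 6 samples of that comparison called 0 of them, and offsets for GC share and length called 14, of which 12 were higher.

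None of the 5 other ligand genes in the table passed. Tgfa, the transforming growth factor alpha gene, had 19.6 ± 1.06 CPM in Sham_Saline and 22.7 ± 3.67 CPM in SNA_Saline (SD, n = 3 each), and its log2 fold change was 0.21 (SE 0.11, edgeR adjusted p = 0.271). Nrg2, the neuregulin-2 gene, had 3.91 ± 1.26 CPM in Sham_Saline and 1.58 ± 0.498 CPM in SNA_Saline without overlap, a log2 fold change of -1.31 (SE 0.41, edgeR adjusted p = 0.105), which passed in DESeq2 (adjusted p = 0.0422). In SNA_NAC against Sham_H202 the Nrg2 value was -0.49 (SE 0.41, edgeR adjusted p = 0.773). Nrg3, Nrg4 and Egf had log2 fold changes of 0.31, 0.04 and -0.37 after sciatic injury with saline.

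Among 11 genes for shedding and processing of the ligand precursors, 1 rose and 0 fell, and the list's median log2 fold change was -0.06 beside -0.03 for all genes. Adam8, which encodes a membrane metalloprotease, had 9.82, 12.3 and 9.16 CPM in Sham_Saline and 20.5, 15.2 and 22.7 CPM in SNA_Saline. The groups did not overlap, and the log2 fold change was 0.90 (SE 0.20, edgeR adjusted p = 0.0224). In the samples with other agents Adam8 rose too, from 8.82 ± 2.95 CPM in Sham_H202 to 19.4 ± 2.14 CPM in SNA_NAC (SD, n = 3 each), with 1.10 as its log2 fold change (SE 0.21, edgeR adjusted p = 0.0111). With saline, the call was lost in the fit of only the 6 samples compared (adjusted p = 0.194), in limma on log2(FPKM + 0.1) (0.0694), and without Sham_Saline replicate 3 (0.0723), SNA_Saline replicate 1 (0.112) or SNA_Saline replicate 3 (0.0703). With the other agents it was lost in the fit of only the 6 samples compared (adjusted p = 0.121) and without SNA_NAC replicate 1 (0.0663).

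Adam8 was lowest in LAM and DCA, at 4.74 ± 0.446 CPM and 5.10 ± 0.517 CPM (SD, n = 3 each). Sham_Saline was above LAM without overlap (log2 fold change 1.12, SE 0.21, edgeR adjusted p = 0.0721), and passed with GC and length offsets at 0.78 (adjusted p = 0.0159) and in DESeq2 (adjusted p = 0.000739). Adam17, the main known sheddase of amphiregulin, did not pass after sciatic injury with saline (log2 fold change 0.13, SE 0.13, edgeR adjusted p = 0.527), nor did Adam10 (0.36, SE 0.18, edgeR adjusted p = 0.250).

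Of 31 signal transducer genes, such as those for Ras, Raf, MAP kinases and phosphoinositide 3-kinase subunits, 0 passed in either direction in edgeR. Their median log2 fold change after sciatic injury with saline was -0.01. The values of this list ran from -0.99 to 0.44, and 15 were positive and 16 negative.

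Of 21 genes for negative regulators, 1 rose and 0 fell in SNA_Saline against Sham_Saline, with a median of -0.01. Socs2, a suppressor of cytokine signalling, had 36.2, 29.3 and 42.4 CPM in Sham_Saline and 65.7, 57.8 and 52.5 CPM in SNA_Saline (log2 fold change 0.71, SE 0.17, edgeR adjusted p = 0.0357). Sham_H202 had an intermediate Socs2 level of 48.5 ± 10.9 CPM, and SNA_NAC against Sham_H202 did not pass (log2 fold change 0.26, SE 0.17, edgeR adjusted p = 0.708). Without SNA_Saline replicate 1, Socs2 missed the threshold (adjusted p = 0.199), as it did without Sham_Saline replicate 2 (0.172) or SNA_Saline replicate 2 (0.118).

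Spry4, which encodes a Sprouty inhibitor of receptor tyrosine kinase signalling, fell in SNA_NAC against Sham_Saline, at 17.2 ± 0.659 CPM and 24.8 ± 2.61 CPM (SD, n = 3 each). The log2 fold change was -0.53 (SE 0.14, edgeR adjusted p = 0.0484), and with the replicate block the adjusted p was 0.0756. The call was also lost without Sham_Saline replicate 2 (0.0864) or 3 (0.0853), or without SNA_NAC replicate 1 (0.110), 2 (0.187) or 3 (0.131). In SNA_Saline against Sham_Saline the value was -0.36 (SE 0.14, edgeR adjusted p = 0.169). The feedback inhibitor gene Errfi1, which is induced by EGF receptor signalling, had a log2 fold change of 0.26 (SE 0.15, edgeR adjusted p = 0.297) there.

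Of 14 genes known as targets of the MAP kinase ERK, 2 rose and 0 fell in SNA_Saline against Sham_Saline, with a median of 0.07. Phlda1, which encodes a pleckstrin homology-like domain protein, had 8.53, 12.1 and 10.7 CPM in Sham_Saline and 20.7, 19.1 and 22.95 CPM in SNA_Saline (log2 fold change 1.00, SE 0.18, edgeR adjusted p = 0.00476). In SNA_NAC it had 18.3, 23.9 and 19.5 CPM, and in Sham_H202 10.99, 10.6 and 15.1 CPM, again without overlap, at a log2 fold change of 0.76 (SE 0.18, edgeR adjusted p = 0.0567). LAM, at 9.84 ± 2.03 CPM, and DCA, at 8.68 ± 0.588 CPM, did not differ in the test (log2 fold change -0.19, SE 0.18, edgeR adjusted p = 0.662).

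Myc, a growth-related transcription factor gene, had 8.82, 13.7 and 10.1 CPM in Sham_Saline and 16.3, 17.1 and 17.0 CPM in SNA_Saline (log2 fold change 0.62, SE 0.15, edgeR adjusted p = 0.0357). With the replicate block its adjusted p was 0.0529, and it missed the threshold without any 1 of the SNA_Saline samples or without Sham_Saline replicate 3. The immediate-early genes Fos and Egr1 did not pass, at log2 fold changes of 0.45 (SE 0.28) and 0.10 (SE 0.24). Nor did Dusp6, a phosphatase gene of the ERK feedback, at 0.23 (SE 0.17).

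The genes whose log2 CPM followed Areg most closely over the 18 samples, among genes with a mean count of at least 50, were Ppp4r1 (r = 0.975), Procr (0.974), Csf1 (0.970), Atf3 (0.970) and Smim3 (0.968). These Pearson coefficients describe samples that share groups and lanes. Atf3, the injury-induced transcription factor gene, had 444 ± 21.5 CPM in SNA_Saline and 447 ± 33.0 CPM in SNA_NAC, against 62.6 ± 8.81 CPM in Sham_Saline and 98.8 ± 20.7 CPM in Sham_H202 (SD, n = 3 each). LAM had 13.8 ± 2.64 CPM and DCA 30.9 ± 7.69 CPM, so the groups took the same order of means as for Areg apart from the 2 injured groups, which overlap for both genes. Atf3 was picked for its likeness to Areg in these same samples, so a similar order follows largely from the choice. Csf1, the gene of macrophage colony-stimulating factor, had 60.4 ± 1.59 CPM in SNA_Saline, 23.3 ± 3.25 CPM in Sham_Saline and 15.1 ± 1.71 CPM in LAM.

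**Figure D5:**
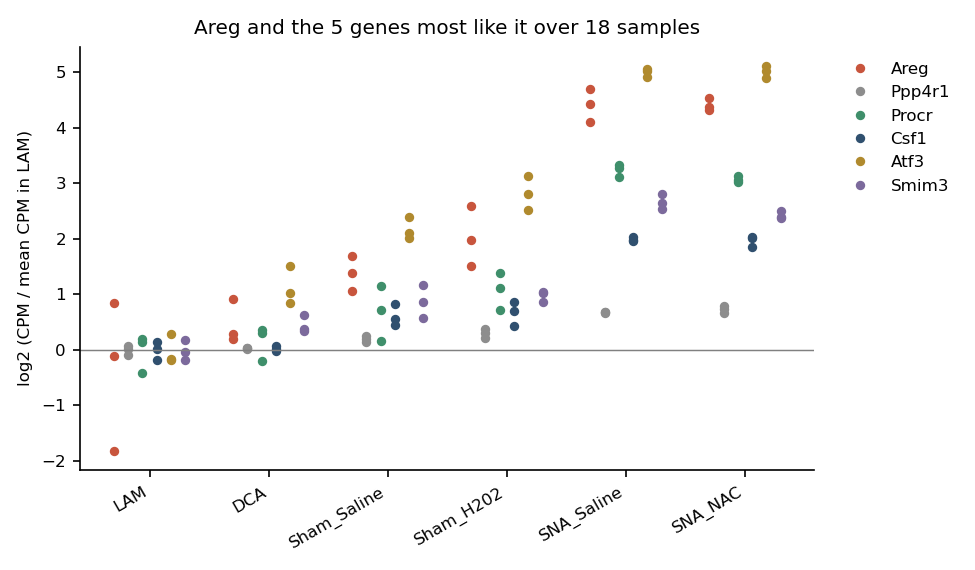
Log2 ratio of CPM to the gene's own mean CPM in LAM, for Areg and the 5 genes most like it over 18 samples, with 3 points per gene and group. For Areg, Procr, Csf1, Atf3 and Smim3 the sciatic injury groups lie above all other groups, and Ppp4r1 moves least. The 5 genes were picked for this likeness, so the shared pattern is no separate result.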

How the data were processed

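RNA from pooled ganglia was made into libraries with a stranded mRNA kit and read from one end, 6 libraries to each of 3 lanes, per the labels' protocols. The submitters' processing notes name TopHat2 2.0.12, Bowtie2 2.2.3, HTSeq 0.6.0 and the mm10 build without their roles; use of strand is not given in the sources used here, so overlapping antisense reads cannot be told apart. The authors deposited whole-number counts for 15730 genes, the lowest mean count being 10.1, and FPKM values for a wider set, which the count and FPKM file headers name by sample. The test of counts was edgeR 4.0.16 run under R 4.3.3 (TMM, filterByExpr, which removed 0 genes, glmQLFit and glmQLFTest on all 18 samples), with Benjamini-Hochberg adjustment over all genes at 0.05; the code was tested on simulated data. Standard errors are the absolute log2 fold change over the root of F. P-values measure the spread between pools of mice, and the reads carry no molecular identifiers, so they may repeat molecules. With 3 against 3 samples an exact permutation test cannot go below 0.1.

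The genes and lists were chosen with earlier results of these data known. Named were the 8 genes, pathway genes past 0.05 in any contrast, the other ligand genes and the genes most like each member (5 for Areg, 3 for the others, with 1 of these not reported here); Fos, Egr1, Dusp6, Errfi1, Adam17 and Adam10 were named after their values were seen. Replicate numbers equal lane numbers in the labels, while the animals differ; same-numbered deviations from group means correlated at -0.65 to 0.56. Alternatives were other scalings and filters, the replicate block, GC and length offsets (splines with 5 degrees of freedom, 15648 genes), only the groups compared, DESeq2 1.42.0, limma 3.58.1 on log2(FPKM + 1) and log2(FPKM + 0.1), a threshold of 0.10, leaving out each sample, and, chosen after seeing the data, SNA_NAC and Sham_H202 in place of the saline groups. Figures used matplotlib 3.10.9.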

Additional observations from a re-analysis of the deposited data

Results flagged for a closer look

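The difference between the sciatic and the dorsal column response was itself fitted for each gene. For Areg it was 2.72 log2 units, among the values that put the gene forward. For Phlda1 it was 1.19 log2 units (SE 0.26, edgeR adjusted p = 0.0310), with higher values in 3 of 3 injured samples on the sciatic side and overlap on the dorsal column side. The Phlda1 difference missed the threshold without SNA_Saline replicate 1 or 2, LAM replicate 1 or 3, or DCA replicate 1 or 3 (adjusted p from 0.0586 to 0.0987), and it was 0.95 (SE 0.26, adjusted p = 0.206) with SNA_NAC and Sham_H202 in place of the saline groups.

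Epgn, the epigen gene near Areg on chromosome 5, was outside the count table and was read from the deposited FPKM. Its mean was 0.293 FPKM in SNA_Saline and 0.274 FPKM in SNA_NAC, each group above every Sham_Saline sample, which had 0.109, 0.214 and 0.157 FPKM. Sham_H202 had 0.289, 0.0795 and 0.260 FPKM and overlapped with both injured groups, and LAM and DCA had means of 0.0455 and 0.0531 FPKM. These values were whole multiples, from 1 to 18, of the smallest step in each sample, so they rest on few reads, and they were not tested. Ereg, the epiregulin gene between Epgn and Areg, was listed at 0 in all 18 samples.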

How the results depend on the processing

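Over 64 results (8 genes in 8 comparisons) and 1182 alternative values, 0 reversed, 6 lost and 15 gained a call, and 52 without a call moved by more than 1 standard error. The 6 lost calls were the Areg difference between injuries. The Areg log2 fold change ran from 2.03 to 3.21 in SNA_Saline against Sham_Saline and from 1.70 to 2.73 in SNA_NAC against Sham_H202, both lowest with limma on FPKM. Requiring 10 counts in every sample removed Areg, because LAM replicate 1 had 1 count, DCA replicate 2 had 8 and Sham_H202 replicate 3 had 9. This filter left 0 of the 8 genes called in each comparison where Areg had been. GC and length offsets called 2 of the 8 in SNA_Saline against Sham_Saline (Areg and Nrg1), but 1 once the replicate block was added. In the difference between injuries the offsets called 2, with or without the block. For that difference DESeq2 called 2, a threshold of 0.10 called 4, and SNA_NAC and Sham_H202 in place of the saline groups called 0. Leaving out 1 sample gave 0 to 3 for it, with 0 without SNA_Saline replicate 1, LAM replicate 2 or 3, or DCA replicate 1 or 3. Without Sham_Saline replicate 1, 3 of the 8 were called in that difference, 4 in SNA_NAC against Sham_Saline (range 1 to 4) and 2 in Sham_Saline against LAM (range 0 to 2; DESeq2 gave 1), while the genes called over the whole table rose to 4600, 5861 and 5009; the cause was not tested. The pathway genes called in SNA_Saline against Sham_Saline were 14 with GC and length offsets, with or without the block, 7 with DESeq2, 0 with only the groups compared, and 1 to 18 when 1 sample was left out, the most without Sham_Saline replicate 1. The replicate block without offsets left the number of the 8 genes called the same in each comparison (1 in SNA_Saline against Sham_Saline) and gave 3 pathway genes. Counts of 1 to 28 a sample for Areg outside the injured groups limit what can be seen there.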

Other observations

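The genes with the most similar log2 CPM over the 18 samples were, for Hbegf, Ctnnal1 (r = 0.852), Arhgef26 and Gm26894, and for Btc, Mtif2 (r = 0.934), Mitd1 and Cyp4v3. Lrrc75b (r = 0.918) and Kif21b were among those most like Nrg1. Among the receptor genes, Egfr was most like Igfbp5 (r = 0.854), Col8a1 and Dact1, and Erbb2 most like Pomgnt1 (r = 0.977), St3gal3 and Uck1. Erbb3 was most like Zfp939 (r = 0.828), Zeb2os and Prss35, and Erbb4 most like Elovl2 (r = 0.844), Irak4 and Zfp955a. These coefficients are descriptions over samples that share groups, lanes and GC dependence.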
